A study of Rattus norvegicus with 35 samples.

Results

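The resting expression pattern of unstretched neonatal rat ventricular myocytes was described from 10 control arrays, 5 of control a and 5 of control b, out of 35 arrays in the series. The members were chosen by their labels alone, as the arrays of cells that were not stretched. Cardiac myocytes were isolated from the ventricles of 2 to 4 day old Sprague-Dawley rats of both sexes, enriched by a pre-plating step that removes cells which attach early, and cultured on flexible collagen I-coated plates, first with serum and then without it. The other 25 arrays held myocytes after 1, 4, 12, 24 or 48 h of cyclic mechanical stretch. The labels give the control groups by a letter only. The methods describe 2 sets of arrays, each with controls of its own, and n = 5 biological replicates in each group. One set held 1, 4 and 12 h of stretch and the other 24 and 48 h. The labels do not say which letter belongs to which set. No other treatment or genetic change separates the control groups by their labels.

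The contracting ventricular myocyte is built around the sarcomere, in which thick filaments of myosin pull on thin filaments of actin, tropomyosin and troponin. Most of its ATP comes from mitochondria, and calcium released from and pumped back into the sarcoplasmic reticulum starts and ends each beat. Around birth the rat ventricle exchanges several fetal isoforms for adult ones and turns from glucose to fatty acids, and fibroblasts, endothelial cells, macrophages and smooth muscle cells of the same tissue are carried into primary cultures to some degree.

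Every array was reduced to ranks. Position 1 is the brightest of 31042 probe sets in an array and percentile 100 is the top of the scale. A gene was read by the brightest of its probe sets, which gave 14217 genes. Ranks order signals, and a signal also depends on how well a probe binds, so that neighboring ranks of different genes do not count molecules. The median intensity of an array was 91.5 to 93.1 in control a and 92.7 to 95.8 in control b, and the upper quartile was 356 to 366 and 399 to 416. The groups were therefore compared by rank and never by fold change. Set, culture and normalization cannot be told apart between them. Replicate 4 of control b stood apart from its group (median Spearman rho with the other 4 arrays of 0.993, against 0.996 for each of those 4), and so did replicate 5 of control a (0.9966 against 0.9973 to 0.9975).

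The genes with the highest ranks were those of the respiratory chain, the sarcomere and the ribosome. COX1, the mitochondrially encoded core subunit of cytochrome c oxidase, lay at positions 2 to 6 in control a and 1 to 6 in control b. COX2, its partner subunit, lay at 4 to 5 and 7 to 9. Among nuclear genes Myh6, the fast alpha myosin heavy chain of the rodent heart, had the highest median rank over the 10 arrays, at positions 9 to 11 in control a and 2 to 5 in control b. In control a it lay behind Myl2, the regulatory light chain of ventricular myosin (positions 7 to 8, and 5 to 13 in control b), in every array. These were followed by Rps29 of the small ribosomal subunit (6 to 12 and 7 to 12), by Tnnt2, cardiac troponin T (10 to 12 and 14 to 20), and by Tpm1, alpha tropomyosin (15 to 18 and 10 to 12). Ankrd1, a stress-sensitive protein of the sarcomere and nucleus, lay at 14 to 20 in control a and 13 to 57 in control b.

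Of the 30 highest ranked genes, 10 were cardiomyocyte markers and 10 were ribosomal proteins. The cardiomyocyte genes were Myh6, Myl2, Tnnt2, Ankrd1, Myl3, Atp2a2, Tnnc1, Cox6a2, Nppa and Pln. Atp2a2, which pumps calcium back into the reticulum after each beat, lay at positions 33 to 40 in control a and 12 to 17 in control b, and Pln, the small membrane protein that restrains this pump, at 65 to 76 and 21 to 31. Both pump and inhibitor thus ranked higher in every array of control b. Mitochondrial carriers were present as well, with Slc25a4, the adenine nucleotide translocase of muscle, at 52 to 63 and 31 to 39, and Slc25a3, the phosphate carrier, at 48 to 58 and 34 to 45. Atp5f1b, the catalytic beta subunit of ATP synthase, lay at 50 to 55 and 25 to 30.

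Transcripts that fibroblasts are known for reached the same height. Col3a1, the fibrillar collagen of type III, lay at positions 38 to 46 in control a and 15 to 22 in control b, and Mgp, a matrix protein that inhibits calcification, at 42 to 48 and 18 to 28. Pla2g2a, a secreted phospholipase, lay at 25 to 36 and 20 to 29.

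Not every bright probe set could be named. Of the 100 brightest probe sets 59 read 1 gene, 32 read several genes and 9 had no gene in the annotation, so that 54 different genes stood behind them. Actc1, the cardiac alpha actin, and Cox7a2 had no probe set matched to them alone and are not described.

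**Figure D1:**
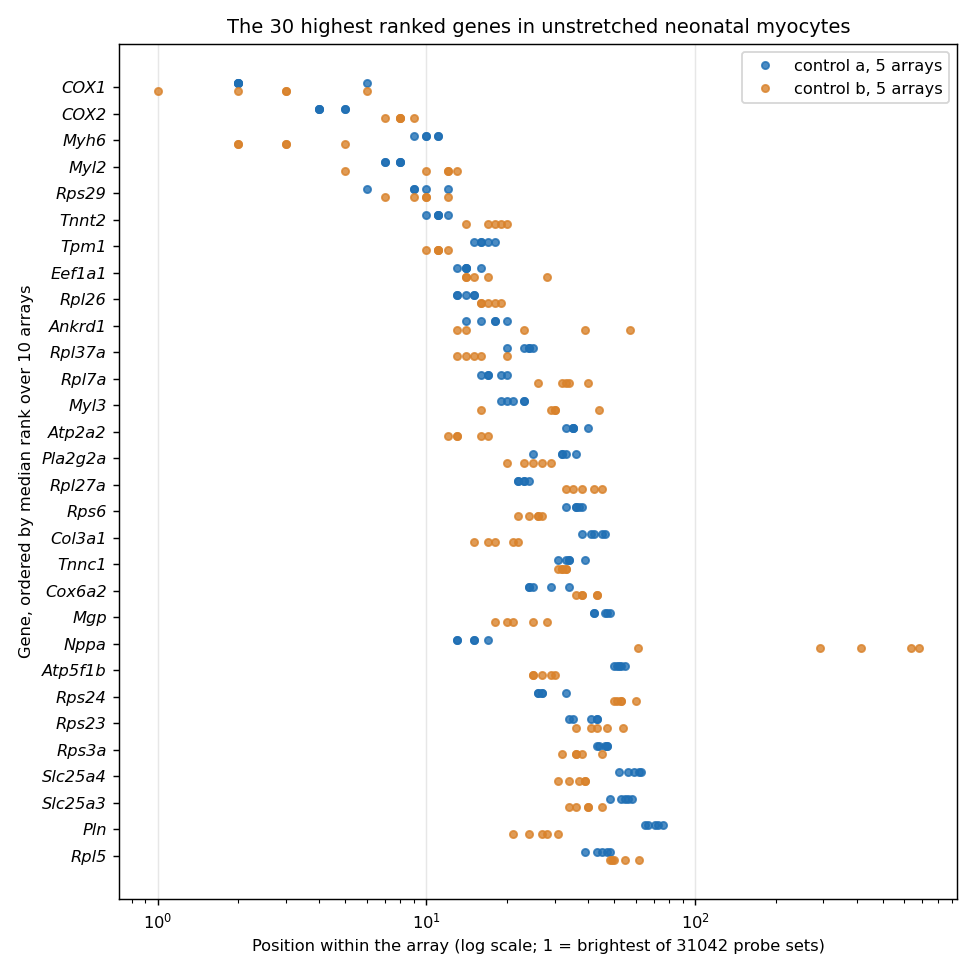
Position of the 30 highest ranked genes in each control array, on a log axis on which 1 is the brightest of 31042 probe sets; each point is 1 array, and genes are ordered by their median rank over the 10 arrays. Nppa is the gene whose groups lie farthest apart, at 13 to 17 in control a and 61 to 682 in control b.

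Of these 30 genes the one whose groups lay farthest apart was Nppa, the gene of atrial natriuretic peptide, which the ventricle expresses before birth and again under load. Its position in replicates 1 to 5 was 17, 15, 13, 13 and 15 in control a and 415, 637, 290, 682 and 61 in control b. All arrays of control b lay lower than all of control a (adjusted p = 0.000229 from limma on rank scores, n = 5 per group). Nppb, the gene of brain natriuretic peptide, lay at 89, 111, 85, 88 and 92 in control a and at 207, 274, 79, 267 and 56 in control b. Its groups overlapped, since replicates 3 and 5 of control b ranked above all of control a, and the difference did not pass the test (adjusted p = 0.21).

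Isoform balance was read from 26 families in which at least 2 members were measured. In 25 of them the form taken as the one typical of adult ventricle or muscle, listed first in its family, was measured. It ranked highest in all 10 arrays in 17 families, another form ranked highest in all 10 arrays in 6, and in 2 the leading form changed between arrays. These orders are orders of signal within an array, and no difference between forms was tested.

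In the sarcomere the cardiac form led in each family in which it was measured. The clearest separations were those of troponin C, where cardiac Tnnc1 lay at percentile 99.9 and the fast skeletal Tnnc2 at 15.6 (medians over 10 arrays), and of troponin T, where the slow skeletal Tnnt1 lay at 41.7. Myl2 stood far above Myl7, the regulatory light chain of the atrium, at percentile 90.3, and Myl3, the ventricular essential light chain, above its atrial and fetal counterpart Myl4 at 95.1. The same held for Actn2, the alpha-actinin of the Z-disc, at 99.6 against 97.0 for the non-muscle Actn1.

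Fetal isoforms nonetheless remained bright. Myh7, the slow beta myosin heavy chain that predominates in the fetal rat ventricle, lay at positions 19, 19, 18, 17 and 27 in control a, only a few places behind Myh6. In control b it lay at 155, 158, 172, 130 and 98, so the groups did not overlap (adjusted p = 1.45e-06, limma on rank scores). Tnni1, the slow skeletal and fetal troponin I, had a median percentile of 99.4 beside 99.6 for the cardiac Tnni3. The gap between them was smallest in control a and did not change sign in any array, with a range of 0.058 to 0.419 percentile points. Tnni3 ranked higher in control b (adjusted p = 4.29e-06), whereas the rank of Tnni1 did not pass the test (adjusted p = 0.98). Acta1, the skeletal alpha actin that is also a fetal cardiac form, lay at positions 345, 348, 317, 329 and 395 in control a and at 782, 1024, 244, 818 and 175 in control b. Replicates 3 and 5 of control b were above all of control a and the other 3 below, and the difference did not pass (adjusted p = 0.351).

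Calcium handling followed the adult cardiac pattern. Atp2a2 stood above the skeletal pump Atp2a1 at percentile 42.1, and Ryr2, the calcium release channel of the heart, at 98.5 above Ryr3 at 51.7. The cardiac calsequestrin Casq2, which stores calcium in the reticulum, lay at 99.2 and the skeletal Casq1 at 84.7. Gja1, the main gap junction connexin of the ventricle, lay at 99.7 with Gja5, the connexin of atrium and conduction system, at 87.7.

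In energy metabolism the families split. Cox6a2, the heart and muscle form of a cytochrome oxidase subunit, lay above the ubiquitous Cox6a1 (99.9 and 99.2), Slc25a4 above Slc25a5 (99.9 and 99.3), Fabp3, the fatty acid carrier of heart, above Fabp5 (99.7 and 95.0), and Ckm, the muscle creatine kinase, above the mitochondrial Ckmt2 (98.1 and 80.3). In glycolysis it was the other way round. Hk1 lay at percentile 96.6, whereas Hk2, the hexokinase of adult muscle, lay at 36.0. The ubiquitous enolase Eno1 lay at 99.4 and the muscle Eno3 at 76.4, Pgam1 at 99.2 and the muscle phosphoglycerate mutase Pgam2 at 79.1, Pfkp at 98.0 and the muscle phosphofructokinase Pfkm at 95.9. For glucose uptake Slc2a1, the basal transporter that prevails before birth, lay at 87.8 and the insulin-sensitive Slc2a4 at 71.9. The remaining one of the 6 families was cytochrome oxidase subunit 8, with Cox8a at 99.5 and the heart form Cox8b at 98.5.

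Lactate dehydrogenase was near balance. Ldha, the form of glycolytic tissue, lay at positions 145, 152, 151, 149 and 134 in control a, and Ldhb, the form of heart, at 153, 163, 168, 162 and 167. In control b Ldha lay at 122, 126, 127, 133 and 130, and Ldhb at 105, 103, 122, 95 and 116. Ldha was therefore ahead in all 5 arrays of control a and Ldhb in all 5 of control b. Ldhb ranked higher in control b (adjusted p = 0.000159), and so, by less, did Ldha (adjusted p = 0.0217). In the other family without a constant leader, the catalytic subunits of AMP-activated protein kinase, Prkaa2 was ahead of Prkaa1 in 9 arrays and behind it in replicate 4 of control b.

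Where several probe sets read a gene, the choice of probe set mattered. With the median over the probe sets of a gene in place of the brightest, the leading form of the myosin heavy chain, regulatory light chain, tropomyosin and connexin families was no longer the same in all 10 arrays. The other probe set of Myh6 lay at percentile 98.9 and that of Myh7 at 98.1. By that median 7 genes left the 30 highest, namely Tnnt2 (percentile 67.6), Rps24 (78.5), Myl2 (85.9), Atp2a2 (90.6), Tpm1 (91.65), Myh6 (99.4) and Pln (99.7). In another choice, probe sets with the suffixes _x_at, _s_at and _a_at were left out. COX1 and Mgp then had no probe set, and Rps24 (57.2), Tpm1 (89.7) and Atp2a2 (90.6) left the 30 highest. The leading form of tropomyosin was again not the same in all 10 arrays.

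**Figure D2:**
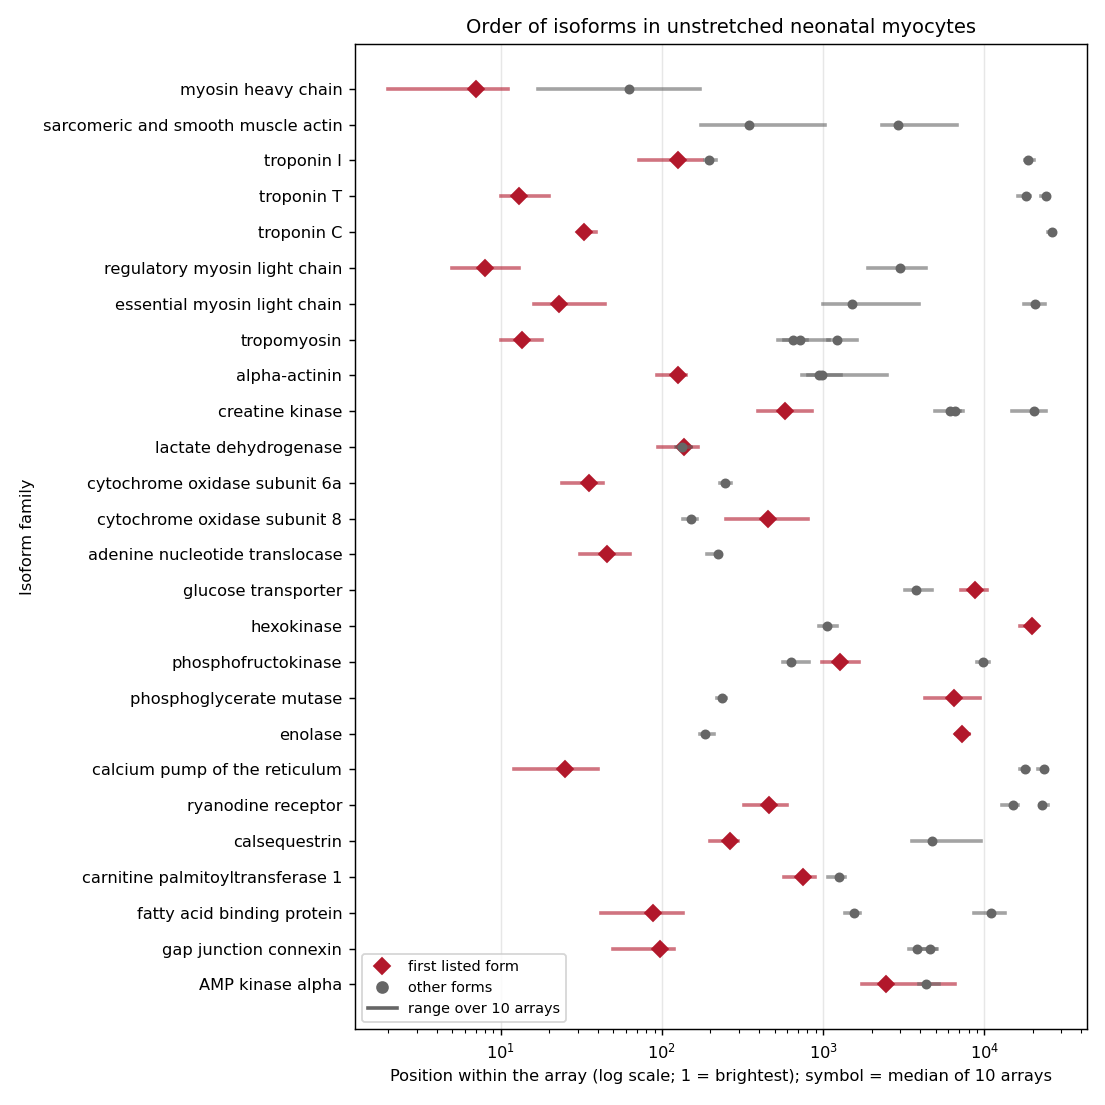
Position of the members of 26 isoform families within the array, on a log axis on which 1 is the brightest; diamonds are the form listed first and circles the other forms, each at its median over 10 arrays, with a line from the lowest to the highest array. The diamond lies to the left in the 17 families that its form leads in all 10 arrays and, by the median, in AMP kinase, while hexokinase, enolase and phosphoglycerate mutase show the ubiquitous form far ahead.

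The identity of the cultures was checked against marker lists. As a reference, 42 genes of tissues other than heart, such as liver, pancreas, pituitary and testis, had a list median at percentile 22.4 to 25.4 in the 10 arrays, and their 90th percentile, 41.9 to 45.8, was taken as the reference level. Over all 14217 genes the median was 66.8 in control a and 66.5 in control b. Of these genes 9828 lay above the reference level in all arrays of control a and 9829 in all of control b. Most genes thus passed this level, and the counts of markers above it are to be read against that share. All 40 cardiomyocyte markers measured lay above the reference level in all 10 arrays, with a list median of 98.9 in control a and 99.0 in control b. The lowest of them reached 72.6 and 71.5. The markers did not go against the label of the cells.

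Fibroblast genes were as bright as those of myocytes. All 25 markers lay above the reference level in all 10 arrays, and the list median was 99.1 in control a and 98.6 in control b. Besides Col3a1 and Mgp, the list was led by Postn, a matrix protein of activated fibroblasts (percentile 99.7 and 99.9), and by Dcn, the proteoglycan decorin (99.7 and 99.8). The extracellular matrix list, which shares genes with it, had medians of 98.5 and 98.1 over 45 genes. In RNA of a mixed culture, fewer cells of a type and less RNA per cell cannot be told apart, and an array gives no share of cells.

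Other stromal cells were read at lower ranks. Smooth muscle and pericyte markers had medians of 81.4 and 80.5, with 13 and 12 of 15 above the reference level. Their highest members were Des, the intermediate filament desmin that myocytes share (99.0 and 98.7), and Tagln, an actin-binding protein (97.3 and 87.6). Notch3, a receptor of mural cells, and Lmod1 lay at or under the reference level. Of 18 endothelial markers 16 were above it in each group, with medians of 68.6 and 75.05. Aqp1, a water channel also found in red cells, was the highest (94.2 in both groups), before the sialomucin Emcn (85.1 and 91.5) and the VEGF receptor Kdr (84.7 and 88.1). Vwf, the endothelial clotting factor, was at 20.4 and 35.4 and so under the reference level.

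Mesothelial and epicardial markers had medians of 64.7 and 53.5 over 11 genes, led by Aldh1a2, the retinoic acid synthesizing enzyme of the epicardium (96.6 and 94.5). Atrial and pacemaker markers lay at 50.03 and 48.0 over 13 genes. Apart from Nppa the bright ones were Pam, an enzyme that processes peptides (99.0 and 99.1), Myl4 (96.6 and 90.1) and Myl7 (93.5 and 86.8), while Sln, Shox2, Isl1, Kcna5 and Kcnj3 lay at or under the reference level in at least 1 group.

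Lymphocytes and mast cells were seen least. None of the 15 lymphocyte and mast cell markers lay above the reference level in all arrays of control a, and 1, the kinase Lck, did in control b. The list medians of 19.1 and 19.8 were below that of the reference genes, and Cd3e, the invariant chain of the T cell receptor, lay at 24.6 and 25.4. Erythroid markers had medians of 35.5 and 36.7, and Hbb, beta globin, was the highest (85.5 and 70.5). Alas2, Klf1, Epb42, Rhag, Car1 and Hemgn lay under the reference level. Schwann and neuronal markers had medians of 34.8 and 37.3, and Sox10, Erbb3, S100b and Ngfr were under it.

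**Figure D3:**
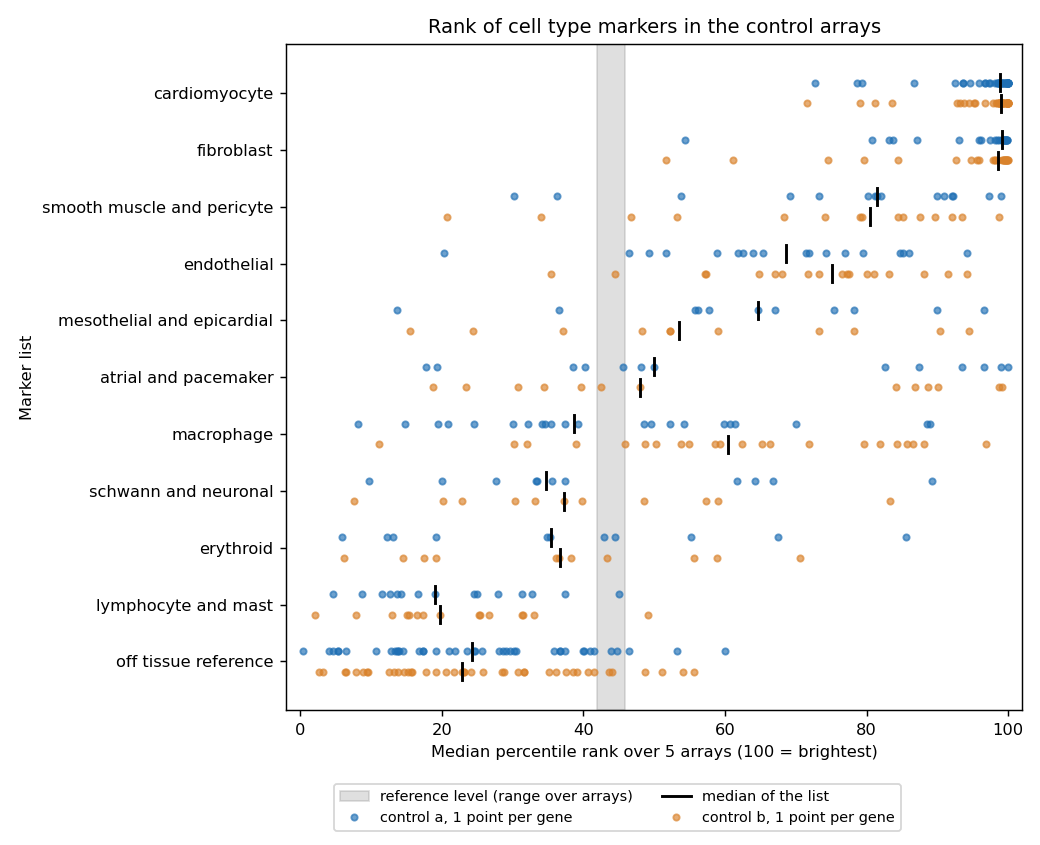
Percentile rank of marker genes by list in control a and control b; each point is a gene at its median over 5 arrays, the vertical bars are list medians, and the grey band is the reference level of 41.9 to 45.8. Cardiomyocyte and fibroblast lists lie at the right edge, lymphocyte and mast cell markers among the reference genes, and the macrophage list moves from 38.7 in control a to 60.5 in control b.

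Mitochondrial and fatty acid genes completed the baseline. The oxidative phosphorylation list had medians of 99.2 and 99.3 over 46 genes, and 43 of them were among the 1000 highest ranked genes in each group. The fatty acid oxidation list had medians of 95.7 and 97.2 over 28 genes, with 13 and 20 among the 1000 highest. Ribosomal proteins lay at 99.6 in both groups over 42 genes, 39 of which were above the reference level. Glycolysis genes lay at 96.5 and 96.8. Of 37 calcium and ion channel genes 27 and 29 lay above the reference level in all arrays of control a and control b. Of all 14217 genes 9828 and 9829 did. Kcnip2 and Kcnd2, subunits of the transient outward potassium current of adult myocytes, lay at percentile 36.5 and 25.9 in control a. In control b both were above the reference level by their medians. Kcnip2 has 3 probe sets, and those other than the brightest lay under that level, at 15.5 and 25.8 (medians over 10 arrays).

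Ranks agreed closely within a group and less closely between groups. Spearman's rho over 31042 probe sets was 0.996 to 0.998 for the 10 pairs of control a arrays, 0.990 to 0.997 for the 10 pairs of control b, and 0.977 to 0.986 for the 25 pairs across the groups. These coefficients describe probe sets that share an array and its normalization and carry no test. Of the 30 highest ranked genes of each group 25 were shared (83.3% of each list), of the 100 highest 85, of the 500 highest 437 and of the 1000 highest 898. Nppa, Myh7, Rpl19, Rpl5 and Rps24 were among the 30 highest in control a only, and Fabp3, Pln, Postn, Slc25a4 and Reg3b, a secreted lectin, in control b only.

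The question of where the unstretched cultures differed was addressed with limma on normal scores of the ranks, with Benjamini-Hochberg adjustment over all probe sets. Of 31042 probe sets 15610 (50.3%) had an adjusted p under 0.05, 7738 higher (24.9%) and 7872 lower (25.4%) in control b, and 37.5% had arrays that did not overlap. Over genes the share was 54.2%, 25.6% higher and 28.6% lower, and 43.4% of genes had arrays that did not overlap. Since most genes at this precision shifted a little, a large shift was set at an adjusted p under 0.05, no overlap between the groups and at least 10 percentile points. That held for 592 of 14217 genes (4.16%), 305 higher (2.15%) and 287 lower (2.02%). Over probe sets it held for 1255 (4.04%), 674 higher (2.17%) and 581 lower (1.87%). The p-values measure the spread between these arrays, and they say nothing on which of set, culture or normalization moved a gene.

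Among the largest shifts were those of interferon-stimulated genes, which cells turn on when type I interferon binds its receptor. Of 25 genes on the list 24 ranked higher in control b and none lower, and 15 were large shifts, against 25.6% and 2.15% of all genes. The list median was 67.1 in control a and 80.6 in control b. Ifit1 was the exception, at percentile 31.3 and 29.5 (adjusted p = 0.12). Ddx60, a helicase that senses viral RNA and was not on the list, had the largest shift of all genes. Its percentile in replicates 1 to 5 was 10.6, 13.5, 13.96, 18.9 and 18.9 in control a and 70.7, 72.3, 72.8, 73.5 and 61.6 in control b (adjusted p = 5.98e-07).

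The sequences upstream of these genes were read on both strands for a motif of 2 copies of GAAA with any 2 bases between them, the core of the element that interferon-activated factors bind. It was present in the 250 bases before the start of 1140 of 33469 genes (3.41%) in the table of promoters from RefSeq (build GRCr8) and in 311 of 11700 genes on the array (2.66%). Among genes with a large shift to higher ranks in control b it was found in 35 of 229 (15.3%), and among those with a large shift to lower ranks in 4 of 211 (1.9%). Of the interferon list 12 of 19 genes held it, of the macrophage list 2 of 17, of the proliferation list 0 of 20 and of the cardiomyocyte list 0 of 32. A match is a string of letters and does not show that a factor was bound. Of the 10 largest shifts to higher ranks 6 genes had a promoter in the table and 4 of these held the motif. Their sequences run 5′ to 3′ on the strand of the gene, with the motif in capitals, read as 2 copies of TTTC where it lies on the opposite strand.
Ddx60 (chr16:33208840-33209089, minus strand): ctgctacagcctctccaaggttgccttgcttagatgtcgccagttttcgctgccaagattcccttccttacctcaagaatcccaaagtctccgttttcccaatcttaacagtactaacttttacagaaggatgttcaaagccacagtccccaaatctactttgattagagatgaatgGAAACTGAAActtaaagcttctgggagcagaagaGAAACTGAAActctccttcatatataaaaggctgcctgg
Oas1a (chr12:41330216-41330465, plus strand): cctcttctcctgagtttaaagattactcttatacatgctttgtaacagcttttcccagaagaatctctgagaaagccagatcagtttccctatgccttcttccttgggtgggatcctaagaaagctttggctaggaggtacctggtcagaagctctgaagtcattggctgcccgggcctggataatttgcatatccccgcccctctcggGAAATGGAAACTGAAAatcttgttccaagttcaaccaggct
Ifit3 (chr1:241527076-241527325, plus strand): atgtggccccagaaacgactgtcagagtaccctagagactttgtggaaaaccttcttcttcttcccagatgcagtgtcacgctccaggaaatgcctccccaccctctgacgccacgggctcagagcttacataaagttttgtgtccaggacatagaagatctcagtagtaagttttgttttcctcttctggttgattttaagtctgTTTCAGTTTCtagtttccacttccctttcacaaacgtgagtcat
Rsad2 (chr6:48788121-48788370, minus strand): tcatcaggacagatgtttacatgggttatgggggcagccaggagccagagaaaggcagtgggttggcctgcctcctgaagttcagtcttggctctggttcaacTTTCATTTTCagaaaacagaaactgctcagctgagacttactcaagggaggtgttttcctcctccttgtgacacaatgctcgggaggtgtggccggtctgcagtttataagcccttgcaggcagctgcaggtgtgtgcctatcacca
The motif begins 73 and 39 bases before the start of Ddx60, 41 and 35 bases before that of Oas1a, where its copies overlap, 44 bases before that of Ifit3 and 147 bases before that of Rsad2.

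These 4 genes and their neighbors were dim in control a. Oas1a, an enzyme that activates an antiviral ribonuclease, had a median percentile of 21.7 in control a and 79.4 in control b. The values of Ifit3, another interferon-stimulated gene, were 11.4 and 59.4. Mx2, a GTPase that blocks viruses, went from 35.2 to 91.4 and Rsad2, the antiviral enzyme viperin, from 39.1 to 77.7. In none of these did an array of one group reach the other (adjusted p of 1.47e-08 to 2.22e-07). The rest of the 10 largest rises outside the macrophage list were RT1-T24-3, a class I MHC gene (45.2 to 90.6), Mx1, a GTPase related to Mx2 (18.5 to 59.9), Rtp4 (51.4 to 88.5) and Usp18. Some interferon genes were already bright in control a, such as B2m, the light chain of MHC class I (99.7 and 99.8), and Ifi27 (99.0 and 99.8).

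Within the groups, single arrays stood out in the same genes. Usp18, which removes the ubiquitin-like Isg15 from proteins, had percentiles of 53.0, 51.8, 51.02, 51.04 and 63.6 in control a, with replicate 5 highest, and of 92.5, 92.6, 91.5, 92.3 and 89.5 in control b, with replicate 5 lowest. Irf7, the factor that amplifies the interferon response, had 68.8, 67.6, 68.5, 67.9 and 76.5 in control a and 95.1, 95.1, 95.7, 95.1 and 93.8 in control b. Over the list, replicate 5 of control a was the highest array of its group for 16 of 25 genes, and replicate 5 of control b the lowest of its group for 18 of 25. The groups stayed separate for these genes, and without either array the counts of 24 and 15 were the same.

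Macrophage genes rose in rank with the interferon genes. Of 22 markers 20 ranked higher in control b and none lower, and 15 were large shifts, against 25.6% and 2.15% of all genes. Of the 22 markers 10 lay above the reference level in all arrays of control a and 17 in all of control b. Of all 14217 genes 9828 and 9829 did. The list median was 37.0 to 40.1 in the arrays of control a and 59.96 to 63.5 in those of control b. Ptprc, the CD45 antigen of white blood cells, had percentiles of 20.6, 18.3, 19.5, 22.0 and 17.7 in control a and 54.5, 56.1, 54.9, 58.3 and 52.5 in control b (adjusted p = 5.75e-08). Csf1r, the receptor through which macrophages are maintained, had 20.9, 21.8, 19.2, 21.0 and 20.3 in control a and 47.4, 48.4, 48.7, 51.8 and 49.5 in control b (adjusted p = 2.77e-08). Both markers were thus under the reference level in all of control a and above it in all of control b. Aif1, a calcium-binding protein of macrophages, moved most, from a median of 14.8 to 58.6.

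Not all macrophage genes were seen. Cd163, a scavenger receptor of resident macrophages, lay at 8.2 and 11.2, and C1qb and Cx3cr1 also stayed under the reference level in both groups. The brightest, Lyz2, the lysozyme of myeloid cells, lay at 88.9 in control a and 96.9 in control b. Lymphocyte and mast cell genes did not move with them, with 2 higher, 5 lower and 8 that did not pass. The part of macrophages in the interferon genes was not tested, and both lists were chosen with earlier results of these arrays known.

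Cell cycle genes went the other way. Of 23 proliferation genes 21 ranked lower in control b and none higher, 8 of them by a large shift, against 28.6% and 2.02% of all genes, and the list median was 72.0 in control a and 60.1 in control b. Mki67, the proliferation antigen, had percentiles of 78.7, 80.3, 79.9, 81.1 and 77.6 in control a and 70.4, 71.5, 69.9, 72.8 and 70.3 in control b (adjusted p = 2.14e-05). Ccnb2, a mitotic cyclin, fell from 82.2 to 68.1. Pcna, the sliding clamp of DNA replication, was the highest of the list and lay at 96.2 in both groups (adjusted p = 0.99), and Tyms did not pass either. All 23 genes lay above the reference level in control a and 22 in control b.

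Of 15 smooth muscle and pericyte markers 5 ranked lower in control b and 4 higher, shares near the 28.6% and 25.6% of all genes, and 2, Cnn1 and Acta2, were large falls. Cnn1, the calponin of smooth muscle, had percentiles of 76.9, 78.5, 80.6, 81.7 and 80.2 in control a and 45.7, 44.1, 46.8, 49.95 and 58.9 in control b (adjusted p = 5.27e-06). Acta2, smooth muscle actin, which immature myocytes and activated fibroblasts also make, had 92.2, 91.98, 91.7, 92.2 and 92.6 in control a and 78.1, 79.4, 84.5, 79.1 and 89.5 in control b (adjusted p = 0.00079). In both genes replicate 5 of control b lay nearest to control a. Myh11, the smooth muscle myosin, did not pass (53.8 and 53.3, adjusted p = 0.281). Of 11 mesothelial markers 6 ranked lower and none higher, and Upk1b, Msln, Krt8 and Krt18, a tetraspan, a surface protein and keratins of that epithelium, were large shifts, Upk1b from 67.0 to 48.3.

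The other genes among the 10 largest falls were on none of the lists. Mmp3, a matrix-degrading protease, went from a median percentile of 40.4 to 8.4, the transcription factor Emx2 from 34.2 to 4.1, the lysine-degrading enzyme Aass from 33.0 to 4.6, and Aldh1a3, which makes retinoic acid, from 67.4 to 39.4. By their medians Mmp3, Emx2 and Aass lay under the reference level of 41.9 to 45.8 in both groups, where signal is close to background. Grem1, a secreted antagonist of bone morphogenetic proteins, went from 59.9 to 33.7, and Scn3b, a sodium channel subunit, from 89.0 to 63.9. Sncg, gamma-synuclein, went from 62.6 to 35.4 and Ass1, an enzyme of arginine synthesis, from 72.6 to 47.4. The largest of all falls, from 70.7 to 36.2, was that of a gene known only as LOC102553868. Of the red cell markers, Hbb fell too, with percentiles of 91.97, 87.5, 84.8, 85.1 and 85.5 in control a and 68.3, 70.5, 75.1, 68.2 and 77.3 in control b (adjusted p = 0.000291).

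Myocyte and metabolic genes lie at the top of the percentile scale, where a large rise is not possible. In control a 36 of 40 cardiomyocyte markers, 44 of 46 oxidative phosphorylation genes and 23 of 28 fatty acid oxidation genes lay above percentile 90, as did 20 of 25 fibroblast markers and 38 of 42 ribosomal protein genes, against 16.8% of all genes. For these lists the counts past the test are therefore given, and the absence of large rises is not a result. Of 40 cardiomyocyte markers 16 ranked higher in control b, 11 lower and 13 did not pass. The 1 shift of at least 10 points was that of Myom2, an M-band protein, from 94.6 to 81.2. Falls over many positions also take few points here. Nppa went from position 15 to 415 and Myh7 from 19 to 155 (medians), both without overlap, at -1.29 and -0.44 points. The count of large shifts therefore does not show which myocyte genes moved most. Of 28 fatty acid oxidation genes 24 ranked higher and 1, Acadl, lower, against 25.6% and 28.6% of all genes, with Fabp3 from position 127 to 45 (medians). Oxidative phosphorylation had 25 higher and 5 lower of 46. The potassium channel subunits Kcnip2 and Kcnd2 rose by a large shift, from 36.5 to 65.1 and from 25.9 to 51.4, and among glycolysis genes the muscle forms Pgam2 (72.5 to 85.1) and Hk2 (33.9 to 44.4) did. Of the fetal and growth genes, the imprinted Dlk1 (30.4 to 18.7) and Meg3 (52.2 to 37.0) fell, in a list with 6 higher and 7 lower of 19. By their medians Dlk1 lay under the reference level in both groups, and Hk2 under it in control a and within its range in control b. Of 18 endothelial markers 12 ranked higher and 2 lower, against 25.6% and 28.6% of all genes. Cldn5, a tight junction protein, and Vwf were the large shifts, Vwf under the reference level in both groups by its medians. Single arrays stood apart here too, since replicate 5 of control a was the lowest of its group for 16 of the 18 genes and replicate 1 of control b for 17, and 11 and 14 ranked higher without them.

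The remaining lists were read against all genes, of which 25.6% ranked higher and 28.6% lower, 2.15% and 2.02% by a large shift. Of 25 fibroblast markers 9 ranked higher in control b and 11 lower, with 1 large shift, that of Mfap5, a microfibril protein, from 83.2 to 61.1. Of the 45 matrix genes 12 ranked higher and 21 lower. The large shifts among them were Sparcl1, a matricellular protein (76.2 to 87.7), Thbs2, a thrombospondin (78.0 to 67.2), and Col11a1 (49.7 to 38.2). Of 23 immediate early genes 9 ranked higher and 9 lower, and Fos, a subunit of the AP-1 transcription factor, was the large shift, from 70.5 to 84.7. Stress and heat shock genes had 11 higher and 12 lower of 27, and none was a large shift. In control a 17 of these 27 genes lay above percentile 90, where a large rise is not possible. The same held for 36 of the 45 matrix genes and 15 of 23 glycolysis genes. Of 13 atrial and pacemaker markers 7 ranked lower and 1 higher, and of 11 Schwann and neuronal markers 6 lower and 1 higher. Ribosomal proteins had 9 higher and 16 lower of 42, glycolysis genes 10 higher and 3 lower of 23. Of 37 calcium and ion channel genes 19 ranked higher and 5 lower, of 19 fetal and growth genes 6 higher and 7 lower, and of 11 erythroid markers 2 higher and 3 lower. Of the 42 reference genes of other tissues 10 ranked higher and 8 lower.

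**Figure D4:**
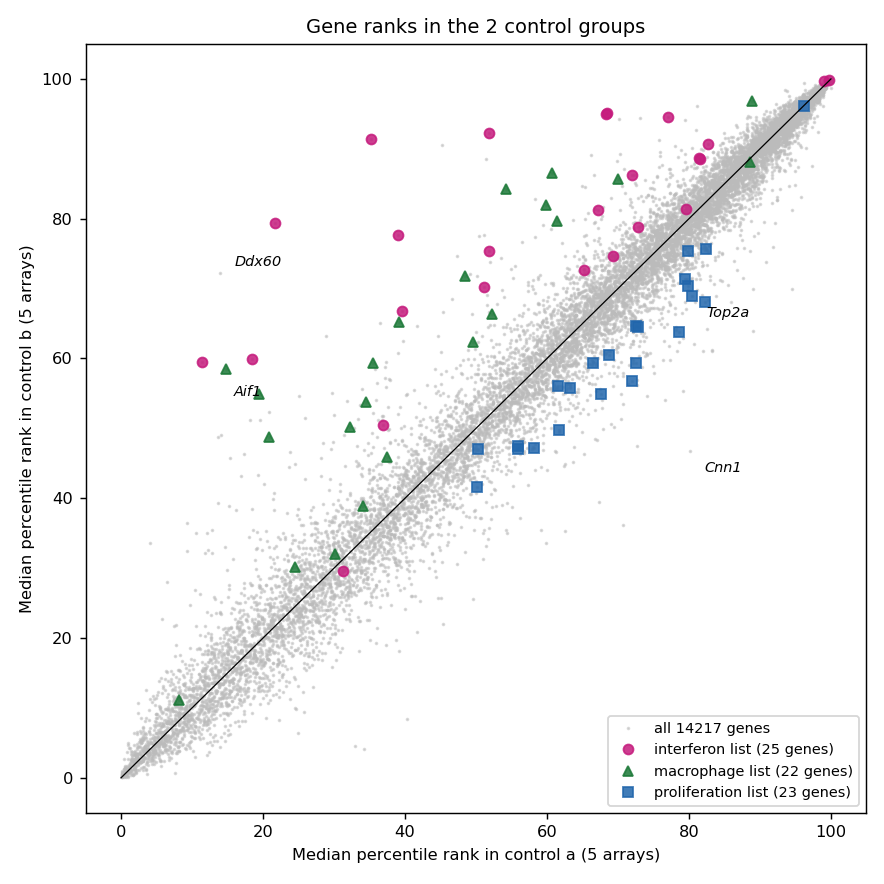
Median percentile rank of 14217 genes in control a and in control b, 5 arrays each, with the line of equal rank; colored symbols are the interferon, macrophage and proliferation lists of 25, 22 and 23 genes. Of the interferon and macrophage genes 24 and 20 lie above the line and passed the test, Ifit1 lies below it, and 21 proliferation genes below it.

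The spread between replicates was small in both groups and uneven between arrays. The median SD over probe sets was 0.09 (log2) in control a and 0.111 in control b, and 0.093 to 0.127 in the 5 stretched groups. The intensities of replicates differed by at least 1 on the log2 scale in 17 probe sets of control a (0.0548%) and in 684 of control b (2.2%), compared with 73 to 871 in the stretched groups. In control b, replicate 4 was the array farthest from the median in 523 of the 684 (76.5%), and without it 154 probe sets were left. Without replicate 3 there were 412. In control a, replicate 5 was the farthest in 15 of 17, and without it 1 was left.

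The most variable genes of control b included load-sensitive genes of the myocyte. Nppa had log2 intensities of 12.35, 11.93, 12.70, 11.87 and 13.60 (SD 0.704), while in control a its SD was 0.054. Acta1 had 11.73, 11.43, 12.86, 11.69 and 13.11 (SD 0.762), with an SD of 0.089 in control a. In both genes replicates 3 and 5 were the highest, as they were for Nppb. Scn3b (SD 0.70) and Ildr2 (SD 0.702) were also highest in replicate 5.

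A second kind of variation separated replicates 1 and 2 from 4 and 5. Nfix, a nuclear factor that shapes the late fetal muscle program, had log2 intensities of 9.09, 9.13, 8.13, 7.35 and 7.42 in control b (SD 0.867, the largest among genes above the middle of the ranks), and the transcription cofactor Arid5b 9.36, 9.18, 8.67, 7.92 and 8.02 (SD 0.654). Another was that of replicate 4, which alone was low for Prkaa2, at 10.47, 10.22, 10.86, 9.01 and 10.45 (SD 0.704), and lowest for Slc3a1, Lpp and Gpam (SD 0.748, 0.632 and 0.595).

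In control a the largest SD was 0.426, of Hspa4, a heat shock protein, and of Usp18. Hbb followed with 10.23, 9.66, 9.35, 9.40 and 9.42 (SD 0.366), replicate 1 being the highest. Hira, Nfix, Ptprb, Efhd1, Isg15, Xpnpep3 and Cpne3 completed the 10 most variable, with SDs of 0.306 to 0.363. Nfix alone was among the 10 most variable genes of both groups. What set these arrays apart was not tested.

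**Figure D5:**
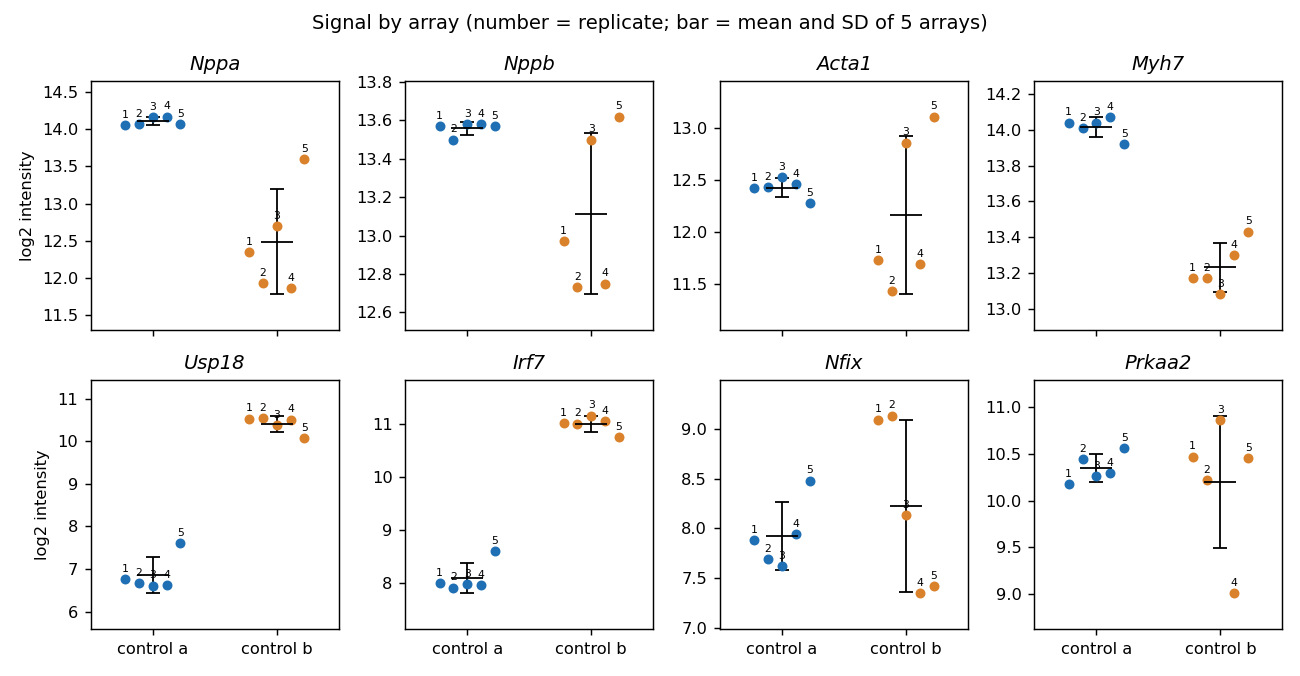
Log2 intensity of 8 genes in each control array, numbered by replicate, with the mean and SD of 5 arrays; levels of the groups come from values whose scale differs and are not compared. Nppa, Nppb and Acta1 are highest in replicates 3 and 5 of control b, Usp18 and Irf7 are highest in replicate 5 of control a, and Prkaa2 is lowest in replicate 4 of control b.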

How the data were processed

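The authors summarized Affymetrix Rat Genome 230 2.0 scans by Robust Multichip Average (RMA) in GeneSpring, and the deposited intensity values are linear. A spreadsheet had stored 122 values of the control arrays as dates, 9 to 17 per array. Their digits were restored from month and year or day and month, and none lay above percentile 8.18. The values were taken to log2. The 57 control probe sets among 31099 were not used. GEO's annotation of the array gave 1 gene for 20826 of the remaining 31042, several for 436 and none for 9780.

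Ranks were taken within each array. For control b against control a, normal scores of the ranks were fitted in limma 3.58.1 (R 4.3.3) with 1 mean per group, with Benjamini-Hochberg adjustment of p over all 31042 probe sets. Every adjusted p given is from this fit. Precision is set by 5 arrays per group, and the p-values measure the spread between these arrays. The procedure was also run on simulated arrays with independent noise, without effects of set or of single arrays. That run does not bear on such effects in these data. Tables and figures were made with Python 3.11.15, pandas 2.3.3, numpy 2.4.6 and matplotlib 3.10.9.

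Gene lists, isoform families and members were chosen with earlier results of these data known. Genes were named from the 30 genes with the highest median rank, the isoform families, up to 4 of the highest of each list and markers at or under the reference level, and the 10 most variable and 10 most shifted genes per group or direction. Other genes were named after their values had been seen, among them Ccnb2, Mki67 and the large shifts of the lists. Alternatives were other rank scales, a filter on dim probe sets, 1 probe set per gene, array weights, the replicate number as a block, an exact rank sum test, other choices of probe set and reference level, and leaving out each array.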

Additional observations from a re-analysis of the deposited data

Results flagged for a closer look

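A value was set apart where the gap of 1 array to its nearest neighbor took most of the range of its 5 arrays, by Dixon's criterion at 95%, which chance meets in about 1 of 20 groups of values. It was met in 13 of 136 groups of 5 values (9.56%), and 6 of them were set apart by replicate 5 of control a and 5 by replicate 5 of control b. The genes looked at were those given by array in the text, some of them named for their spread, and interferon genes moved together. The share therefore cannot be read against the rate of chance.

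In replicate 5 of control a the median Spearman rho with the rest of its group was 0.9966 (median of the other 4 arrays 0.9973). Its median percentile was 80.07 for smooth muscle and pericyte markers (81.48), 64.72 for endothelial markers (68.66) and 86.6 for fetal and growth genes (89.24). Its log2 intensity was 7.61 for Usp18 (6.64) and 8.60 for Irf7 (7.96). In replicate 2 of control a Nppb was lower, at 13.50 (13.57).

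In replicate 4 of control b the median rho with the rest of its group was 0.9929 (0.9957). In replicate 5 of control b the log2 intensity was lower for Ddx60, at 7.58 (8.45), for Oas1a, at 8.61 (9.06), for Mx2, at 9.85 (10.40), for Isg15, at 10.75 (11.05), and for Prkaa1, at 9.37 (9.63). The genes of the interferon response set apart in replicate 5 of control a were high in it, and those in replicate 5 of control b were low in it.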

How the results depend on the processing

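The 20 named shifts, picked as the largest in these same arrays, kept their direction and an adjusted p under 0.05 in all 330 refits. The filter on dim probe sets removed Ddx60, Oas1a, Ifit3, Aif1, Mx1, Mmp3, Emx2, Aass, Sncg and Grem1. These genes were therefore not refitted with that filter. The count of 15610 probe sets became 9281 among those of at least the 50th percentile and 8120 with 1 probe set per gene, where fewer were tested. The count of 1255 large shifts became 512 (256 higher, 256 lower) and 592 (305 higher, 287 lower). The replicate block gave 15263, but the numbers do not pair the arrays: deviations of same-numbered arrays correlated at -0.048 to 0.182, and 2 of 5 matched their own number best. The filter left 10 macrophage genes higher, 9 of them large shifts, of 11 tested, and 1 endothelial large shift. Median rho was 0.9958 within control a, 0.9881 within control b and 0.954 between them with the filter, and 0.9986 within control a with 1 probe set per gene. With the median of all genes as the reference level, the markers above it in control a and control b were 8 and 10 for endothelium, 3 and 8 for macrophages, 0 in control b for lymphocytes and mast cells, 1 and 1 for erythroid cells, 4 and 4 for mesothelium, and 1 and 1 for Schwann and neuronal cells. Probe sets with a range of at least 1 (log2) in control a fell from 17 to 6 with the filter and were 1 to 15 without 1 array. In control b they were 154 to 673 without 1 array. The SD of ranks was 1.15 percentile points in control a and 1.44 in control b (medians).

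Without 1 array, 14159 to 15517 probe sets passed the test and 1230 to 1307 were large shifts. Of the 30 highest genes 23 remained with the median over probe sets. Dim probe sets limit the ranks: restored date values and most reference genes lie where signal is close to background. Arrays give no share of cells, and what separates the control groups was not tested.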
